A study of Mus musculus with 7 samples.

Results

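The 6 genes described here are Ang, Ang4, Ang5, Rnase4, Rnaset2a and Rnaset2b, which were taken by symbol from the 27998 gene rows of a single-cell RNA sequencing (scRNA-seq) count matrix of mouse mammary glands. Each symbol matched 1 row. Libraries were prepared from the dissociated #4 glands, without lymph nodes, of 3 young (3–4 months) and 4 aged (13–14 months) females that were nulliparous, in diestrus and of a mixed FVB, 129 and C57BL/6J background, with 1 mouse per library. The matrix held unique molecular identifier (UMI) counts of 13684 cells in 13 cell types named by the authors. Levels are given as CPM, the UMIs of a gene scaled to 1000000 UMIs of the same mouse and cell type. Age cannot be told apart from library processing in this design. In aged libraries the deposited UMI total was up to 22 above the matrix sum of the same cell, and it was above it in 0 young cells, and whether both ages were aligned to the same annotation is not given in the sources used here. The genes were chosen by values of these same samples: the study listed Ang4 and Ang5 as higher in luminal hormone-sensing (HS) cells of aged mice, and Rnase4 among genes marking fibroblasts and the 2 macrophage types. Changes with age in HS cells are therefore given as a description without a test.

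Angiogenin (Ang) and Rnase4 encode small secreted enzymes of the RNase A superfamily, the vertebrate family that also contains pancreatic ribonuclease. Angiogenin is a growth factor for blood vessels that can enter cells, cleaves transfer RNA under stress, and is held inactive by the cytosolic ribonuclease inhibitor Rnh1. Ang4 is best known as an antimicrobial protein of intestinal Paneth and goblet cells, and Ang5 is a rodent paralog about which less is known. Rnaset2a and Rnaset2b are a mouse gene pair for ribonuclease T2, an acid enzyme of the unrelated T2 family that degrades RNA in lysosomes and is also secreted.

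On the mm10 assembly (GRCm38, GENCODE vM21 annotation), Ang (chr14:51091150-51102009) lay within the span of Rnase4 (chr14:51091077-51106151) on the plus strand, and 219 of the 1202 exonic bases of Ang were also exonic in Rnase4. RefSeq gives both genes 1 start in common, whose upstream sequence is shown, and Rnase4 a second start of its own (window chr14:51095750-51096049). Ang4 (chr14:51763878-51773590, minus strand) and Ang5 (chr14:43957069-43963072, plus strand) lie apart on the same chromosome. The 250 bases upstream of their RefSeq starts (GRCm38.p6) were 89.3% identical over 233 aligned bases, and they are shown because the 2 genes were detected together. TATATA was found once in each, and capitals mark it. Capitals in the shared upstream sequence of Ang and Rnase4 mark its only CCAAT on either strand. On both strands, TATATA was present in 5.25% and CCAAT in 33.8% of all 32817 RefSeq upstream windows of that length. The sequences read 5′ to 3′ on the strand of the gene.
Ang4, chr14:51773591-51773840: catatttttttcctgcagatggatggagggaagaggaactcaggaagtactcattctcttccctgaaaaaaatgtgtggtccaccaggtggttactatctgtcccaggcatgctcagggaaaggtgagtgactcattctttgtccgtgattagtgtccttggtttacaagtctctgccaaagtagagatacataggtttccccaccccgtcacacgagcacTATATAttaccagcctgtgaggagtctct
Ang5, chr14:43956819-43957068: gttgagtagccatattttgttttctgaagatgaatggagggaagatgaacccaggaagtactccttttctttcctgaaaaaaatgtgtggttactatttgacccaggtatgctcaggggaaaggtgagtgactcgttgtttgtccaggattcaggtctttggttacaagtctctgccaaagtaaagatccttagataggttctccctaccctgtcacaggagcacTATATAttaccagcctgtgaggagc
Ang and Rnase4, chr14:51090827-51091076: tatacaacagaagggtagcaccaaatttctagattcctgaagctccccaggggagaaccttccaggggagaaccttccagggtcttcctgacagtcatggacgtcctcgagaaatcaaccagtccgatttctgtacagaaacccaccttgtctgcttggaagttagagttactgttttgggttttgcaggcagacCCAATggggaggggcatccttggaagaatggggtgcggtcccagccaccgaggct

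Rnaset2a (chr17:8115445-8148097, minus strand) and Rnaset2b (chr17:6970634-7011299, plus strand) were nearly identical. Their longest coding transcripts matched at 2435 of 2448 aligned bases, and the last 400 bases, where 3′ reads fall, at 399 of 400. In the stretch upstream of the RefSeq start of Rnaset2b that was also found in a RefSeq window of Rnaset2a, 205 bases differed at 1 position, shown in capitals. Reads of such a pair can be divided between the 2 rows by few bases, and the single rows are reported as uncertain beside their sum. By the same measure Ang4 and Ang5 transcripts were 90.2% identical and shared 4.55% of the 50-base words of Ang4.
Rnaset2a, chr17:8147833-8148037: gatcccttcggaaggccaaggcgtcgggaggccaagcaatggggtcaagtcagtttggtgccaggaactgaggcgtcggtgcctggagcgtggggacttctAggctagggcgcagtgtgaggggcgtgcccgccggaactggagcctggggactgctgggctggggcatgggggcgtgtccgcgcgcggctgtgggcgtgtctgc
Rnaset2b, chr17:6978655-6978859: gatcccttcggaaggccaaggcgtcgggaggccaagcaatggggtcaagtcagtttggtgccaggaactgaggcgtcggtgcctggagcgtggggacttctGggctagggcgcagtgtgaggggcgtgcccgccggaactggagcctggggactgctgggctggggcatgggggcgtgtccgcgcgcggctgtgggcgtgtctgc

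The libraries held 1264 to 2865 cells and 6652599 to 16999625 UMIs. Of 39 marker genes set for 12 of the types, 36 had their highest mean level in the type they mark. The exceptions were Prlr and Pgr, which were slightly higher in HS-AV than in HS cells, and Cd3g, which was higher in NK cells than in T and B cells. Of 13640 distinct barcodes, 44 occurred in more than 1 library.

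The 6 genes were distributed over the gland in 3 patterns. Ang and Rnase4 were stromal, with 75% of the 775 Ang UMIs and 82.2% of the 8507 Rnase4 UMIs in fibroblasts. Ang4 and Ang5 were epithelial, with 91.1% of 1095 and 91.0% of 987 UMIs in HS cells. Rnaset2a and Rnaset2b were found in every cell type, with 46.5% of the 7143 Rnaset2a UMIs in luminal alveolar (AV) cells and 35.2% of the 2641 Rnaset2b UMIs in HS cells. A UMI of Ang was detected in 650 cells, of Ang4 in 271, of Ang5 in 250, of Rnase4 in 2899, of Rnaset2a in 5007 and of Rnaset2b in 2071. Shares of UMIs follow the number of cells captured of each type as well as the level per cell, and the levels in CPM do not. In young mice (n = 3), Rnaset2a was highest in the macrophage types Ma and Mb (194 ± 87.3 and 188 ± 69.4 CPM, SD), against 59.1 ± 22.0 in AV cells. Rnaset2b was highest in T and B cells, Ma and Mb (143 ± 87.1, 139 ± 71.6 and 137 ± 43.1), against 86.9 ± 45.1 in HS cells. It was lower in dendritic (63.4 ± 32.5) than in HS cells. The T and B cells of young mice numbered 20.

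**Figure D1:**
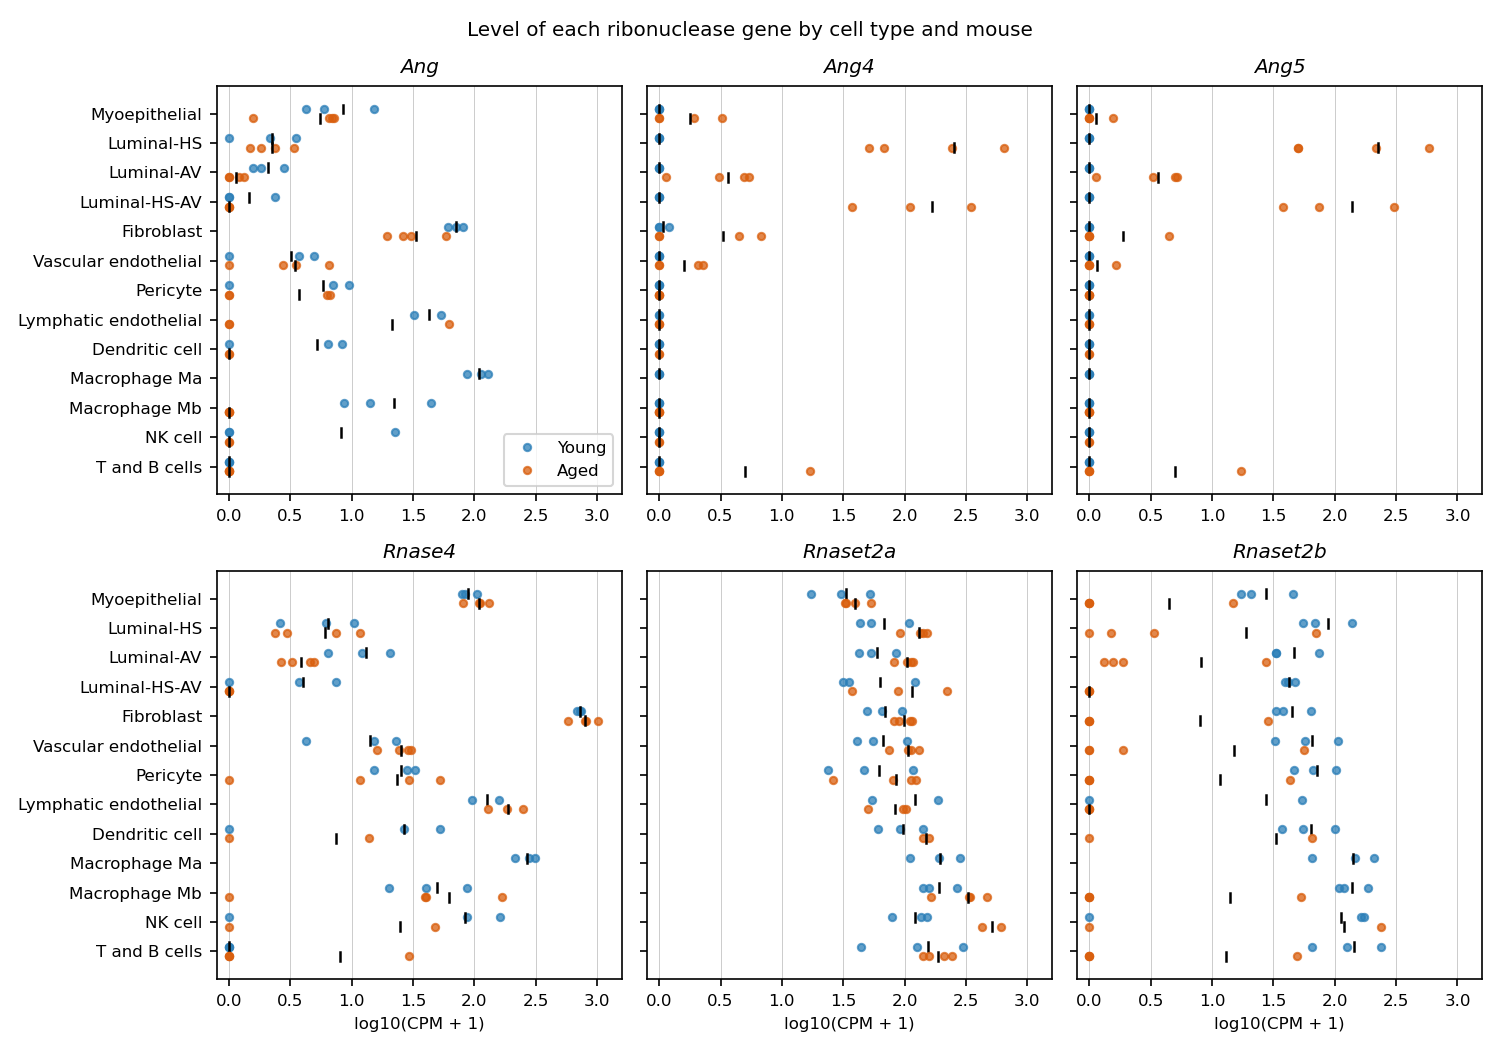
Level of each gene as log10(CPM + 1) in each cell type, with 1 point per mouse (blue young, orange aged; mice with at least 3 cells of the type) and a black line at the mean CPM of the age group. Rnase4 peaks in fibroblasts, Ang4 and Ang5 in HS and HS-AV cells of aged mice, and Rnaset2b is near 0 in 3 of the 4 aged mice.

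Rnase4 reached its highest level in fibroblasts, at a mean of 719 CPM (SD 30, n = 3 young mice) and 802 CPM (SD 180.3, n = 4 aged mice). By mouse the fibroblast level was 727, 686 and 744 CPM in Young A, B and C and 807, 1024, 582 and 795 CPM in Aged A, B, C and D, so that the groups overlapped. It was followed by Ma macrophages, the type marked by Mrc1 and Cd163, at 267 ± 49.8 (SD, n = 3 young mice; aged mice had too few cells). Lymphatic endothelial cells (126 ± 45.5 in 2 young and 186 ± 60.8 in 3 aged mice) and myoepithelial cells (88.4 ± 13.6, n = 3, and 107 ± 20.7, n = 4) came next. Levels in HS cells (5.43 ± 3.94 and 5.11 ± 4.35) were near the bottom of the order, and the single mice of neighbouring low types overlapped. A UMI of Rnase4 was detected in 1813 of 1993 fibroblasts. In 100 lymphocytes (NK, T and B cells), which should lack the gene and serve as the reference for free RNA, the share was 9.00%, at a median of 4258 UMIs per cell. These were 8 of 40 NK cells and 1 of 60 T and B cells, and the NK cells of Young A, Young C and Aged A also held fibroblast markers, at 924, 959.6 and 659.9 CPM.

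Ang had a different order from Rnase4, with which it shares 1 of the RefSeq starts. Its highest mean was in Ma macrophages at 109 CPM ± 21.8 (SD, n = 3 young mice), where the 3 mice had 86.0, 112 and 129 CPM. Fibroblasts followed, with 69.5 CPM in young mice (SD 9.82, n = 3) and 32.6 in aged mice (SD 17.2, n = 4). In young mice there were 2.43 Rnase4 UMIs per Ang UMI in Ma macrophages and 2.33 in Mb macrophages, the Mmp12-positive type with only 9 Ang UMIs, against 11.3 in fibroblasts and 8.88 in myoepithelial cells. This ratio compares counts of 2 genes of unlike 3′ ends, and only its differences between types can be read. Over 58 sums of a mouse and a cell type with at least 10 cells, Rnase4 was the gene most like Ang (Pearson r of log2(CPM + 1) = 0.797), followed by Cd302, Ccl8, Lamp1 and Colec12. The genes most like Rnase4 were Serpinf1 (r = 0.876), Aebp1, Mmp2, Adamts2 and Fbln1, secreted or matrix proteins of fibroblasts. The sums share libraries and cell types, and r is a description.

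Co-detection of Ang and Rnase4 in single fibroblasts was weak once each cell was thinned to 2000 UMIs. In the 4 mice with at least 5 Ang-positive fibroblasts, Rnase4 was detected in 78.8%, 51.9%, 78.8% and 100% of cells with an Ang UMI (Young A, B and C and Aged A) and in 69.7%, 72.0%, 71% and 71.3% of cells without. The mean difference was 6.37 percentage points ± 20.1 (SD, n = 4), smaller than its spread. Without thinning, the difference in fibroblasts was 2.58 points ± 1.66 (SD) and above 0 in 5 of 5 mice. No cell of 1670 thinned myoepithelial cells held both, with Ang in 17 and Rnase4 in 303. Without thinning, 13 of 44 myoepithelial cells with Ang had Rnase4 (29.5%, against 34.6% of those without). In Ma macrophages, thinned cells had Rnase4 in 50% with and 23.3% without Ang in Young A and in 45.5% and 38.0% in Young C, the mice with at least 5 Ang-positive cells. Without thinning, the shares in Ma macrophages were 71.4% and 26.9% in Young A, 100% and 50% in Young B, and 73.9% and 60.5% in Young C.

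Ang4 and Ang5 were detected in HS cells of all 4 aged mice and in 0 HS cells of the 3 young mice. The Ang4 level in HS cells was 241, 50.6, 66.6 and 647 CPM in Aged A, B, C and D, and the Ang5 level was 214, 48.7, 48.9 and 590.3 CPM. Aged A and D were high and Aged B and C low for both genes, and the aged mean was 251 ± 278 CPM for Ang4 and 225 ± 255 for Ang5 (SD, n = 4). In the 1571 HS cells of young mice there was no UMI of either gene among 10748285 UMIs, which allows up to 0.279 CPM (3 counts over the group) and up to 0.191% of cells with a UMI. Against that limit the aged mean was at least 901-fold higher for Ang4 and at least 808-fold higher for Ang5, and the aged mouse with the lowest level at least 181-fold and 174-fold higher. These are values of the contrast from which the study picked the genes, and they assume that both ages were aligned to the same annotation. Outside HS cells, the young mice had 1 UMI of Ang4, in a fibroblast of Young C, and 0 of Ang5.

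The share of HS cells with either gene varied between the aged mice more than counting error allows. It was 56.2% in Aged A (91 of 162 cells, Wilson 95% interval 48.5 to 63.6), 21.8% in Aged B (48 of 220, 16.9 to 27.7), 17.2% in Aged C (16 of 93, 10.9 to 26.1) and 64.1% in Aged D (59 of 92, 53.9 to 73.2). Intervals and limits cover counting error alone. With each cell thinned to 2000 UMIs the shares were 37.7%, 12.3%, 8.60% and 44.6%, in the same order of mice. Cells with a UMI of either gene had a similar depth to those without, with medians of 7660.0 and 7865 UMIs in Aged A and 9408 and 9746 in Aged D. Of the 100 lymphocytes, 1 had a UMI of Ang4 and 1 a UMI of Ang5, in each case among the T and B cells of Aged A. The aged mice held 40 of the T and B cells and 12 of the NK cells. The other lymphocytes came from young mice, whose libraries held almost no UMI of either gene and so give no reference for the aged ones.

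The counts were uneven between cells. The highest count in 1 cell was 15, 22, 27 and 59 UMIs of Ang4 in Aged A, B, C and D. The 5 cells with the most Ang4 held 21.9% of the Ang4 UMIs of HS cells in Aged A, 37.5% in Aged B, 77.6% in Aged C and 41.9% in Aged D. The level of Aged C thus came mainly from a few cells, while the median positive cell held 1.00 to 3.00 UMIs in the 4 mice.

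Within a cell, Ang4 and Ang5 counts were nearly equal. Of the 214 HS cells with either gene, 187 had both, 20 had Ang4 alone and 7 had Ang5 alone. The counts were equal in 123 cells and differed by at most 1 UMI in 192. Of 85 cells with 1 Ang4 UMI, 64 had 1 Ang5 UMI and 18 had none. Over the HS cells of a mouse, Pearson r of the counts was 0.97, 0.98, 0.99 and 1.00 in Aged A, B, C and D, and the slope of Ang5 on Ang4 was 0.87 to 0.91. In Aged B and C, r leans on 1 cell each, with 22 and 27 Ang4 and 19 and 24 Ang5 UMIs. No other cell of these mice had more than 5 Ang4 UMIs. In Aged C, 10 of the 16 cells with either gene had both. With cells thinned to 2000 UMIs, cells with Ang4 had Ang5 more often by 45.7 percentage points ± 13.3 (SD, n = 4 mice), and in 4 of 4 mice. Whether reads of 1 molecule were assigned in part to each of these similar genes was not tested, since the matrix does not keep the molecules.

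**Figure D2:**
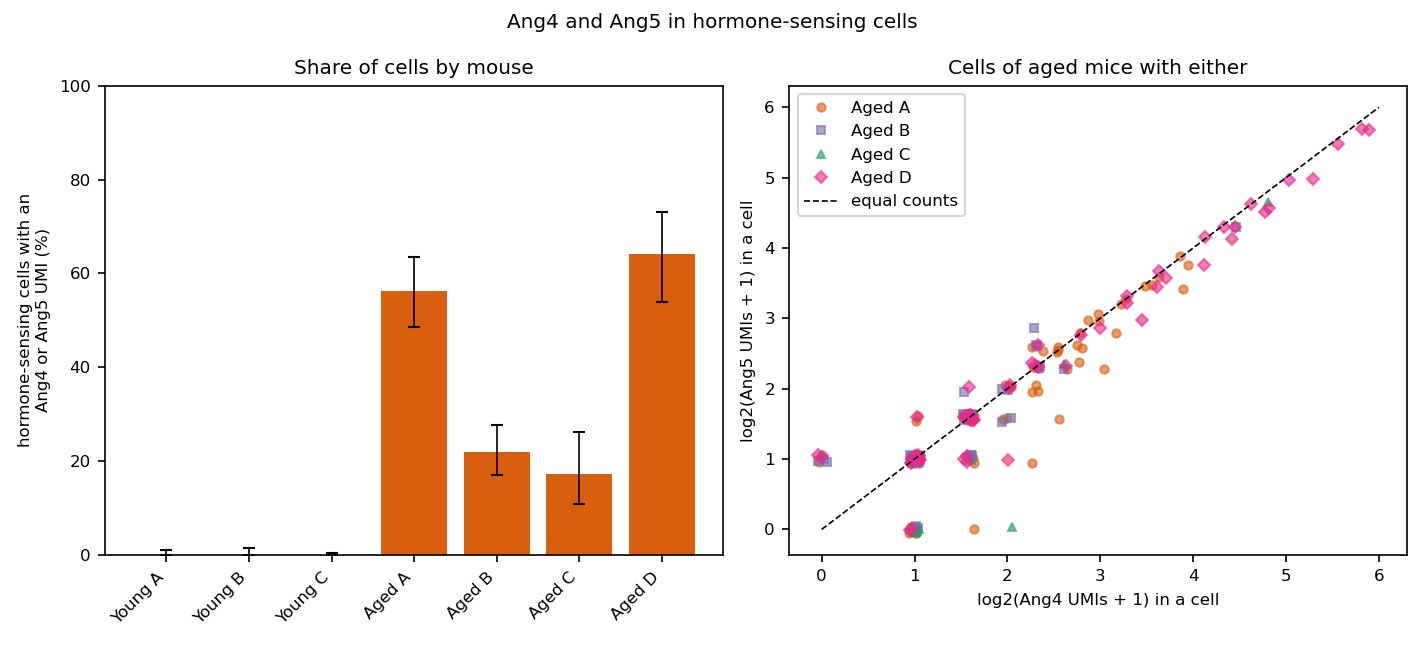
Left, percentage of HS cells with an Ang4 or Ang5 UMI in each mouse, with Wilson 95% intervals. Right, log2(UMIs + 1) of Ang5 against Ang4 in each HS cell of aged mice with either gene (points jittered), where most cells lie along the dashed line of equal counts and Aged D reaches 59 Ang4 UMIs.

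HS cells of aged mice with an Ang4 or Ang5 UMI were compared with the other HS cells of the same mouse, as a description of cells chosen by a readout. Of the HS genes that the study names, Pgr, the progesterone receptor, was at 62.4 CPM ± 10.7 with and 108 ± 24.4 without (SD, n = 4 mice), and lower in 4 of 4 mice. The prolactin receptor Prlr (1132 ± 253 and 1093 ± 325) and the HS marker Cited1 (735 ± 347 and 746 ± 337) were higher in 2 of 4 mice. Tph1, which makes serotonin in these cells, was at 294 ± 62.1 and 300.4 ± 79.6, and Arg1, arginase, at 231 ± 69.7 and 213 ± 68.1. Of the genes higher in all 4 mice, those with the largest smallest difference were Fxyd2, a subunit of the sodium pump (1297 ± 915 and 665 ± 453), and Ctsr, a cathepsin (621 ± 651 and 138 ± 153). Among the next genes were those of the secreted proteins Cxcl15 and Wfdc2, with Cxcl15 at 927 ± 339.9 and 673 ± 262 and Wfdc2 at 3883 ± 1822 and 2532 ± 373. Rnaset2a was at 151 ± 29.5 and 111 ± 22.9, and higher with Ang4 or Ang5 in 4 of 4 mice. The ranked genes, Rnaset2a included, came from 1133 genes compared. How many of these were higher or lower in all 4 mice is not given here. A direction shared by 4 of 4 mice is thus not read as a result, for Pgr as well. Over the 58 sums, the genes most like Ang4 were Ang5 (r = 0.977), Upk3a (0.723), Ctsr (0.703), Arg1 (0.694) and Cxcl17 (0.620), and the same genes in the same order followed Ang4 for Ang5.

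HS-AV cells, which carry both luminal programs, were few in aged mice. Ang4 was at 110.0, 36.6 and 348 CPM in Aged A, B and D, from 3, 1 and 8 UMIs in 6, 6 and 4 cells, and at 0 in the 257 HS-AV cells of young mice. AV cells had Ang4 or Ang5 in 14 of 860, 23 of 1446, 1 of 909 and 24 of 811 cells of Aged A, B, C and D and in 0 of 794 cells of young mice. Up to 13 Ang4 UMIs were counted in 1 AV cell. The 62 AV cells with either gene had AV markers at 16957 CPM (Mfge8, Trf, Csn3 and Elf5 summed), against 17827 in the other 3964 AV cells of aged mice. Their HS markers (Prlr, Pgr and Cited1 summed) were at 89.1 and 31.4 CPM, and at 2009 in HS cells. A UMI of an HS marker was present in 16.1% and 18.0% of these AV cells. In AV cells the young mice were all at 0, and the aged mice were at 0.136 to 4.35 CPM of Ang4 and 0.136 to 4.19 CPM of Ang5.

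In the matrix as a whole, 5 genes were below 0.1 CPM in each young library and at 3 CPM or more in each aged library, a search made after the values were seen. Beside Ang4 and Ang5 they were Atn1, Schip1 and 2210407C18Rik. Atn1 (0 and 818 UMIs in young and aged mice) was found in 11 cell types of the aged mice, with 9.17% of its UMIs in HS cells. The part of library processing in the absence of Ang4 and Ang5 from young libraries cannot be told apart from age.

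Outside HS cells, 17 pairs of a member and a cell type had enough counts for the age test, of 42. With calls made at an adjusted p below 0.05 plus a 1.5-fold difference, 3 pairs were higher in aged mice and 2 lower. Over all genes tested in the same 6 types, 7.65% of tests were called higher and 7.18% lower. By type, 1 of 3 members was called in myoepithelial cells (27.6% of all genes tested), 2 of 5 in AV cells (6.16%), 0 of 4 in fibroblasts (3.17%), 2 of 3 in vascular endothelial cells (26.7%), 0 of 1 in pericytes (11.8%) and 0 of 1 in Mb macrophages (1.16%). At an unadjusted p under 0.05, 3 of the 4 members tested in fibroblasts and the 1 in Mb macrophages passed, and the 1 in pericytes did not. Of all genes tested, 1102 of 5513 in fibroblasts, 180 of 859 in Mb macrophages and 726 of 2601 in pericytes did so. The tests of Ang4 and Ang5 in AV cells, which passed the count filter through the aged mice alone, are among the 17 and are not read. Rnaset2b in myoepithelial cells, 1 of the 2 lower calls, needed the young mice to pass that filter and is not read either. All p-values here measure the spread between mice, 1 library each.

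Rnase4 fell in AV cells and rose in vascular endothelial cells. In AV cells it was at 19.6, 5.40 and 11.2 CPM in young and 3.95, 2.29, 1.64 and 3.54 CPM in aged mice, without overlap, and fell by 1.93 on the log2 scale (SE 0.42, edgeR adjusted p = 0.0249). These were 64 UMIs in young and 81 in aged mice. The 4 fibroblast markers (Col1a1, Col1a2, Col3a1 and Pdgfra summed) measured in the same AV cells were at 27.0 to 167 CPM in young and 2.18 to 5.26 CPM in aged mice, with 4 of 4 lower in aged mice and none at 0. Fibroblasts made up 14.6% to 36.1% of the cells of young and 1.09% to 7.34% of those of aged libraries, and the part of free fibroblast RNA in the fall was not tested. Without Young A, Young C or Aged C the adjusted p was 0.131, 0.0792 and 0.0602.

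In vascular endothelial cells Rnase4 was at 14.1, 3.27 and 22.0 CPM in young and 29.7, 27.9, 15.2 and 23.5 CPM in aged mice. The groups overlapped, and the level rose by 1.41 (log2, SE 0.43, adjusted p = 0.0236). Fibroblast markers in these cells went the other way, from 26.7 to 110.0 CPM in young to 0.698 to 10.6 CPM in aged mice. The call was lost without Young A (adjusted p = 0.0546), Young B (0.0845) or Aged D (0.0566), with sums thinned to the lowest total (0.0729) and with the replicate letter as a block (0.0628). In myoepithelial cells (104, 83.6 and 77.9 CPM in young and 129.5, 79.6, 109 and 111 CPM in aged mice) the difference was 0.32 (SE 0.22, adjusted p = 0.308), and in fibroblasts 0.27 (SE 0.22, adjusted p = 0.553).

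The age change of Rnase4 in AV cells was tested against that in other types with the mouse as a term. It was lower than in myoepithelial cells by 2.45 (log2, SE 0.36, edgeR adjusted p = 0.000472), than in fibroblasts by 1.86 (SE 0.39, adjusted p = 0.00158) and than in vascular endothelial cells by 3.15 (SE 0.46, adjusted p = 0.000793). Without Young A the difference from fibroblasts was 1.37 (adjusted p = 0.0990), and the other differences passed without any single mouse. Of all genes tested, 9.25%, 3.46% and 10.8% passed in these 3 comparisons. For fibroblasts against vascular endothelial cells (5.70% of genes passed), fibroblasts against pericytes (0.928%) and vascular endothelial cells against pericytes (9.64%), no member passed. At an unadjusted p under 0.05 there was 1, Rnase4 in the first of them. Rnase4 differed there by -1.16 (SE 0.40, adjusted p = 0.0974), 0.16 (SE 0.66, adjusted p = 0.953) and 1.32 (SE 0.66, adjusted p = 0.237). No other member passed in any of the 6 comparisons.

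**Figure D3:**
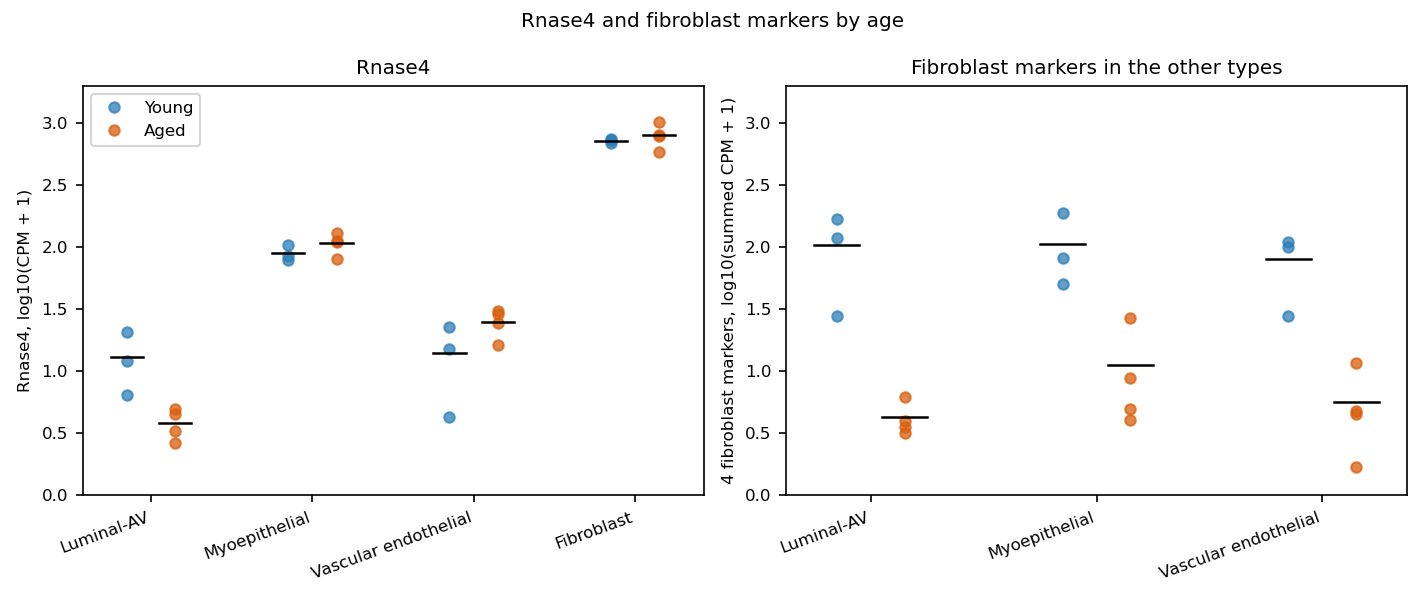
Left, Rnase4 as log10(CPM + 1) in 4 cell types, with 1 point per mouse (blue young, orange aged) and a line at the mean CPM. Right, the summed level of 4 fibroblast markers in 3 other types on the same scale, which was lower in every aged than in every young mouse in each of the 3.

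Ang could be tested in fibroblasts alone. Its level was 69.2, 79.5 and 59.9 CPM in young and 29.3, 57.5, 25.3 and 18.3 CPM in aged mice, so that every aged mouse lay below every young one. The difference of -0.92 (log2, SE 0.32) had an adjusted p of 0.130, with 31 UMIs in 194 fibroblasts of aged mice. Over all cells of a mouse, Ang was at 18.2 CPM in young mice (SD 4.61, n = 3) and 1.75 CPM in aged mice (SD 0.705, n = 4), and Rnase4 at 173 ± 68.9 and 36.1 ± 21.4. When 8 cell types were given equal weight in each mouse, Rnase4 was at 114 ± 9.07 and 129 ± 27.4 and Ang at 13.5 ± 0.451 and 5.46 ± 2.74. The lower Rnase4 of the whole aged gland was thus not seen at equal weights of the types, and that of Ang was in part. In dissociated tissue, fewer cells of a type captured and fewer in the gland cannot be told apart.

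Rnaset2b was lower in every aged than in every young mouse over all cells, and the aged mice differed widely among themselves. Over all cells its level was 98.2, 55.6 and 42.4 CPM in Young A, B and C, 34.2 CPM in Aged A, and 0.588, 0.490 and 0.373 CPM in Aged B, C and D. Rnaset2a was present in every mouse, at 107, 55.3 and 45.7 CPM in young and 118, 92.2, 82.3 and 101 CPM in aged mice. Rnaset2b made up 47.8%, 50.1% and 48.1% of the UMIs of the pair in the young mice, 22.4% in Aged A (353 of 1574, Wilson 95% interval 20.4 to 24.6), and 0.634%, 0.592% and 0.369% in Aged B, C and D. By cell type, the share stayed near 0 in Aged B, C and D, while the level of Aged A overlapped that of young mice in some types. In HS and vascular endothelial cells, Rnaset2b was at 69.1 and 55.1 CPM in Aged A. The young mice were at 54.4 to 138 and 31.6 to 106 CPM there. Levels of Aged A and young mice also overlapped in dendritic and NK cells. In types with at least 10 UMIs of the pair, the share was 25% to 66.7% in young mice, 13.3% to 31.2% in Aged A, and at most 1.65% in Aged B, C and D. In HS cells it was 56.3%, 56.4% and 56.1% in the young mice.

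**Figure D4:**
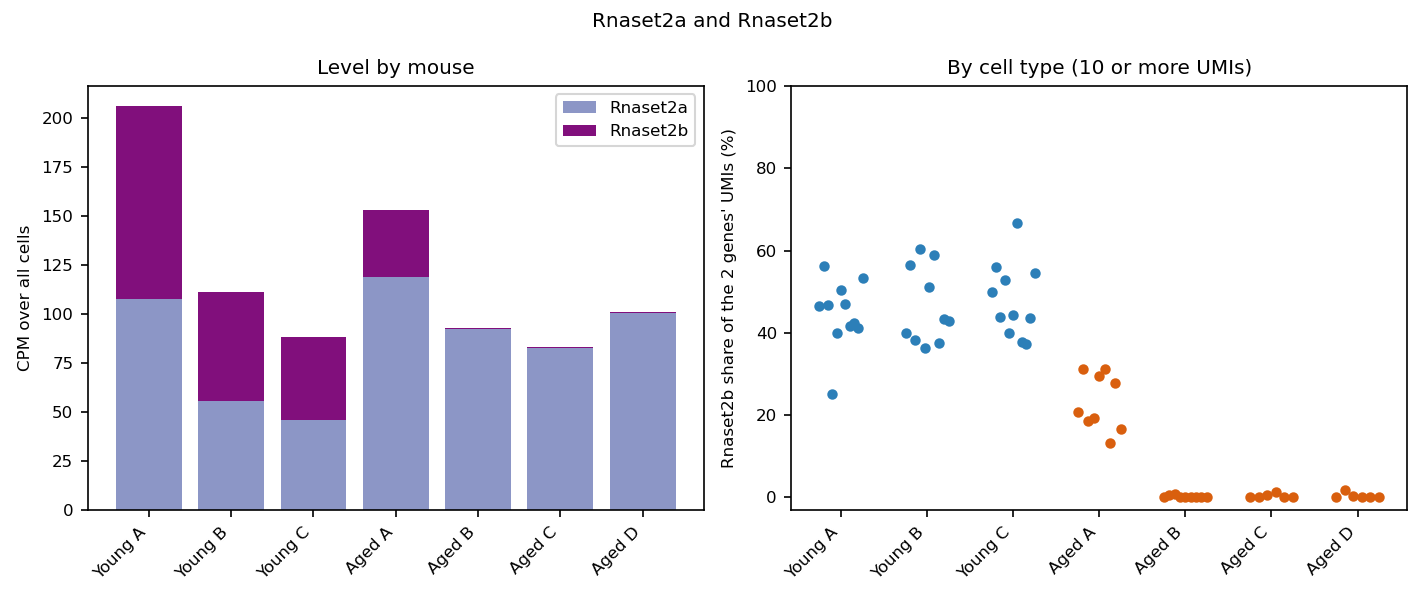
Left, level of Rnaset2a and Rnaset2b (stacked bars, CPM over all cells) in each mouse. Right, Rnaset2b as a percentage of the UMIs of both genes in each cell type with at least 10 of them, 1 point per type, which lies at 25% or more in young mice, at 13.3% to 31.2% in Aged A and near 0 in Aged B, C and D.

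The single rows and their sum gave different results with age. Rnaset2a rose in AV cells, from 83.7, 52.2 and 41.3 CPM in young to 117, 104, 80.6 and 112 CPM in aged mice (log2 change 1.08, SE 0.25, adjusted p = 0.0322). It also rose in vascular endothelial cells, from 104, 53.9 and 39.9 to 131, 112, 73.1 and 106 CPM (0.99, SE 0.27, adjusted p = 0.0145). Young A overlapped the aged mice in both types. In myoepithelial cells Rnaset2b was at 44.4, 19.7 and 16.2 CPM in young mice and 13.8 CPM in Aged A. It was at 0 in Aged B, C and D, which allow up to 1.03, 4.62 and 1.71 CPM. The fit called it lower by 3.49 (SE 0.84, edgeR adjusted p = 0.00554). With UMIs in Aged A alone among the aged mice, the row needed the young mice to pass the count filter. This call is not read. When the rows were summed, the difference was 0.34 in AV cells (SE 0.28, adjusted p = 0.512), 0.19 in vascular endothelial cells (SE 0.32, adjusted p = 0.684) and -0.61 in myoepithelial cells (SE 0.32, adjusted p = 0.168), and no type passed.

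The calls also depended on single mice. Rnaset2a in AV cells had an adjusted p of 0.0510 to 0.127 when any mouse other than Young A was left out, and in vascular endothelial cells of 0.0736 without Young B. Rnaset2b in myoepithelial cells had one of 0.216 without Young A, and of 0.404 with DESeq2 (log2 change -2.98). Without Aged A, the edgeR adjusted p of Rnaset2b was 0.000233 in AV cells, 0.0482 in fibroblasts and 1.09e-05 in vascular endothelial cells. With all mice it was 0.198, 0.200 and 0.0879. Aged B, C and D held 9, 4 and 2 Rnaset2b UMIs in AV cells, 0 each in fibroblasts, and 0, 1 and 0 in vascular endothelial cells. Without Aged A the row thus passed the count filter through the young mice alone, and these calls are not read. In HS cells, given as values alone, Rnaset2a was at 67.6 ± 34.9 in young and 129 ± 26.9 CPM in aged mice and Rnaset2b at 86.9 ± 45.1 and 18.0 ± 34.1.

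Of the genes within 250000 bases of Rnaset2a or Rnaset2b, Sft2d1 had the pattern most like that of Rnaset2b. Sft2d1, a Golgi transport protein gene on chromosome 17 (start 8311102), lies within that distance of Rnaset2a and not of Rnaset2b. It was at 66.4, 49.6 and 47.4 CPM in young mice, 21.6 in Aged A and 5.00, 3.92 and 6.71 in Aged B, C and D. Sft2d1 was also the second most alike gene to Rnaset2b over the 58 sums (r = 0.792), after Gm10036 (0.853). The gene next to Rnaset2b, Tagap1, was at 6.56, 6.46 and 6.10 CPM in young and 6.98, 4.12, 4.21 and 6.34 CPM in aged mice. Mpc1, near Rnaset2a, was at 111, 91.1 and 105 CPM in young and 79.2, 75.3, 68.2 and 60.6 CPM in aged mice. Every aged mouse was thus below every young one in Mpc1, by less than in Sft2d1. In a search of all genes made after the values were seen, 1 gene, Rnaset2b, was at least 10 times lower in Aged B, C and D than in each of the other 4 mice, among 5865 genes at 10 CPM or more in those 4. The genotype of the mice at either locus, on the mixed background, was not tested. For Rnaset2a the most alike genes were Shisa5 (r = 0.644), Lcp1, Ppih, Arpc4 and Il10rb.

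The share of cells with a UMI of a member, at 2000 UMIs per cell, did not pass with age in any of 31 testable pairs (exact two-sided permutation test over 35 divisions of the mice, smallest possible p = 0.0286). The smallest adjusted p was 0.316, and 1 pair, Rnaset2b in T and B cells, had an unadjusted p under 0.05. Without thinning, 0 of 37 pairs passed, 8 had an unadjusted p under 0.05, and the smallest adjusted p was 0.132 (exact permutation test). In the T and B cell pair, thinned, the share had a mean of 25% in young mice (SD 12.5, n = 3) and was 0 in the 4 aged mice (exact permutation p = 0.0286). In AV cells Rnaset2a was detected in 11.4% ± 5.99 and 19.1% ± 3.32 of cells, and in Mb macrophages in 22.8% ± 10.7 and 63.9% ± 27.8.

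Some ribonuclease genes near Ang or Ang5, picked after their values were seen, were unequal between the ages as well, in both directions. Rnase10 had 55, 29 and 39 UMIs in young and 3, 5, 2 and 0 in aged mice, and Rnase6 had 66, 18 and 41 and 8, 3, 0 and 2. Ear2, an eosinophil-type ribonuclease gene near Ang5, had 51, 14 and 158 UMIs in young and 0 in each aged mouse. Near Ang, Rnase1 went the other way, with 8, 8 and 23 UMIs in young and 136, 139, 110 and 136 in aged mice. Ang2 had 0 in each young mouse and 3, 1, 0 and 2 in aged mice. These are UMIs of whole libraries of unlike cell mixtures.

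Other genes of the pathway were described outside HS cells from lists chosen with earlier results known. Of 17 further genes of the RNase A superfamily, 1 had enough counts in AV cells and 1 in fibroblasts. Rnase1, the pancreatic-type ribonuclease, was at 1.15, 0 and 0 CPM in AV cells of young mice and 19.9, 12.9, 12.8 and 20 CPM in those of aged mice. Only 1 young mouse was above 0, and Rnase1 passed the count filter through the aged mice. Its test is therefore not read. Of 5 angiogenin partners, 4 were tested in vascular endothelial cells (26.7% of all genes called) and 2 rose. Rnh1, the ribonuclease inhibitor, went from 87.9, 79.5 and 75.6 to 109, 122, 97.1 and 111 CPM (log2 change 0.79, SE 0.15, edgeR adjusted p = 0.00131). The other was the RNA ligase Rtcb (1.04, SE 0.15, adjusted p = 0.000209). The median change of these 4 was 0.74, against -0.05 over all genes tested in the type. In myoepithelial cells (27.6% of all genes called) 4 were tested, of which the transfer RNA methyltransferase Nsun2 rose (1.16, SE 0.29, adjusted p = 0.00672) and the angiogenin receptor Plxnb2 fell (-1.42, SE 0.37, adjusted p = 0.00892). None of them was called in AV cells (5 tested), fibroblasts (4), pericytes (2) or Mb macrophages (2).

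Genes that handle RNA and DNA in endosomes and lysosomes, where ribonuclease T2 acts, had few members tested. Of 12, 4 were tested in myoepithelial cells (median change -0.68, against 0.01 over all genes), where Lamp2 rose (0.66, SE 0.21, adjusted p = 0.0283) and Sidt2 fell (-0.89, SE 0.31, adjusted p = 0.0405). In vascular endothelial cells 6 were tested and Tlr3, a receptor for double-stranded RNA, fell (-1.04, SE 0.32, adjusted p = 0.0277). Of 13 other ribonucleases, 8 were tested in myoepithelial cells with 1 higher and 2 lower, and 10 in vascular endothelial cells with 1 higher and 2 lower, where 27.6% and 26.7% of all genes were called. Zc3h12a (Regnase-1), which degrades inflammatory mRNAs, was the higher one in both (2.30, SE 0.37, adjusted p = 0.000323, and 0.96, SE 0.23, adjusted p = 0.00774). The RNase H2 subunit Rnaseh2c was lower in both (-1.71, SE 0.27, adjusted p = 0.000249, and -0.97, SE 0.20, adjusted p = 0.00230). Rnaseh2a was lower in myoepithelial and Dicer1 in vascular endothelial cells. Neither list had a called gene in AV cells, fibroblasts, pericytes or Mb macrophages.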

How the data were processed

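UMI counts of 13684 cells from 7 mice were deposited by the authors as whole numbers, 1 row per gene and 1 column per cell, without normalization. Per the labels and the submitters' processing notes, libraries were made with the 10X Chromium 3′ kit v2 and reads were mapped to mm10 with Cell Ranger 2.0. The annotation and the handling of reads that match several genes are not given in the sources used here. The cell type of each cell was taken from the deposited metadata. Those tables also hold the authors' ratio of mitochondrial counts and cell-cycle scores, which were not used. The authors kept cells within limits on UMIs, genes and mitochondrial share before deposit.

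For each mouse, the counts of all cells of a type were added (at least 3 cells). Age was tested with the edgeR 4.0.16 quasi-likelihood test in R 4.3.3 (filterByExpr, TMM factors, all 3 young and 4 aged mice), with Benjamini-Hochberg adjustment over all genes of the type, and called at adjusted p under 0.05 and 1.5-fold. SE is the log2 change divided by the square root of F. Differences of the age change between types were tested as the interaction, with the mouse as a term. Shares of cells were taken after thinning each cell to 2000 UMIs and compared by an exact permutation test. The 5 cell types with too few cells in 1 age group were not tested. CPM is scaled to the UMIs of the sum. Cells of 1 mouse are not replicates, and co-detection and likeness have no p. The age fit was also run on simulated counts with known answers. Upstream sequences came from RefSeq on GRCm38.p6, and all 6 symbols matched; transcripts and gene positions came from GENCODE vM21, the same assembly, matched by symbol. Sequences were aligned with Biopython 1.88. Doublets were kept as deposited.

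The members and gene lists were chosen with earlier results of these data known. Named genes are the 6 members, the 5 most alike to each over 58 sums among genes with mean CPM of at least 5, and at most 3 called genes per list and type with the largest change; genes of HS cells with and without Ang4 or Ang5 and neighbours were chosen after their values were seen. Alternatives comprised DESeq2 1.42.0, RLE factors, other filters and thinning, the label letter as a block, summed rows, and each mouse left out.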

Additional observations from a re-analysis of the deposited data

Results flagged for a closer look

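Within the 4 aged mice, 26 sets of levels with at least 10 UMIs were examined for a mouse that stood apart by Dixon's test, which flags about 1 in 20 by chance, and 6 were found. In 5 of them the mouse was Aged A, which was higher in Rnaset2b than the other 3. The gap over the range was 1.00 in myoepithelial cells (13.8 CPM in Aged A) and fibroblasts (27.6 CPM), 0.966 in HS cells (69.1 CPM), 0.978 in AV cells (26.7 CPM) and 0.984 in vascular endothelial cells (55.1 CPM). These 5 concern 1 gene in the same mice. In myoepithelial cells and fibroblasts the other 3 mice were at 0, so that the ratio was 1.00 whatever Aged A held. In HS, AV and vascular endothelial cells they had at most 9 UMIs each, and the ratios are a description. The other was Ang in myoepithelial cells, where Aged D was lowest with 0.570 CPM and a ratio of 0.885.

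The age change of Rnase4 differed between cell types by the interaction test of edgeR, by -2.45 for AV minus myoepithelial cells, -1.86 for AV cells minus fibroblasts and -3.15 for AV minus vascular endothelial cells on the log2 scale.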

How the results depend on the processing

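The 3 higher and 2 lower calls with age gave counts in the same range under RLE factors, without ribosomal protein and mitochondrial genes, with at least 10 cells per mouse, with cells of at least 1000 genes and without the fold minimum. Of the 2 lower calls, that of Rnaset2b in myoepithelial cells is counted and not read. The count of higher calls was 5 with DESeq2, which added Ang4 and Ang5 in AV cells. Both were at 0 in all young mice, and these 2 calls are not read. The count was 1 each with the replicate block and with sums thinned to the lowest total of the type. With rows summed it was 1, counted over fewer rows: Rnase4, the sum of Rnaset2a and Rnaset2b, and the sum of Ang, Ang2, Ang4, Ang5 and Ang6. The count of lower calls was 1 with DESeq2, 6 with no filter on low counts, 0 with thinned sums and 1 with rows summed. With the replicate block it was 3, against 2 without it. Leaving out 1 mouse gave 0 to 2 higher and 0 to 5 lower calls. There were 0 higher without Young B, 1 without Aged D, 0 lower without Young A, 1 without Aged C and 5 without Aged A. The last count includes the Rnaset2b calls in AV cells, fibroblasts and vascular endothelial cells that are not read. The letters A to C name different animals of each age, and same-letter mice did not deviate together (correlations of -0.17 to 0.37), so that the block does not pair them. Except where rows are summed or samples are fewer, the cause was not tested.

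The number of interactions called was 3 or 4 in each setting run. Without Young A the AV and fibroblast difference was lost (-1.37, adjusted p = 0.0990), and that of fibroblasts and vascular endothelial cells was called (-1.49, adjusted p = 0.0458). Small differences that were not called changed sign. Rnase4 in myoepithelial cells was at -0.06 with thinned sums, Rnaset2a there ranged from -0.10 without Young C to 0.91 without Young A (-0.03 without Aged A), and the Rnase4 difference of fibroblasts and pericytes from -0.36 without Aged B to 0.70 without Aged D (-0.03 and -0.21 without Young A and Aged A). Without thinning, HS cells with Ang4 had Ang5 more often by 83.0 percentage points, and cells with fewer UMIs limit what co-detection can show. Mean levels in the highest type moved by less than their spread, although Rnaset2a in NK cells was at 280.2 CPM with all mice and 135 with at least 10 cells. Ang, Ang4 and Ang5 were below the count filter in most types, and differences there were not detectable at this depth.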
